A study of Mus musculus with 5 samples.

Results

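The 8 genes examined here belong to the resting lymphoid T cell program, and their H3K27ac, a histone acetylation found at promoters and enhancers in use, was measured in regulatory T (Treg) cells sorted from the large intestine. They were Foxo1, Klf2, S1pr1, Ccr7, Tcf7, Lef1, Bach2 and Satb1. A locus was taken as the gene span in GENCODE M21 (mouse build mm10) with 20 kb added on each side, and every deposited peak that overlapped it was a member. This gave 241 of the 124158 peaks in the series, and no peak belonged to more than 1 of the loci. The comparison was with all loci that had enough counts, 16106 of 21938 annotated protein-coding genes, with the 8 members among them. The mark was measured by CUT&Tag, in which an antibody brings a transposase to the modified histone so that the DNA beside it is tagged for sequencing. Ctrl mice had the genotype Foxp3CreSetd2flox/+ and KO mice Foxp3CreSetd2flox/flox. All were C57BL/6 mice aged 2 weeks at steady state, and Setd2 encodes the H3K36 methyltransferase. The Cre is driven by Foxp3, the lineage factor of Treg cells, and both groups carried it. Ctrl cells carried 1 floxed Setd2 allele, which the study describes as deficient in Treg cells, so Ctrl was not wild type. Each genotype had 2 libraries of 60000 sorted CD3+CD4+Foxp3-YFP+ cells pooled from female and male mice. Each library was a biological replicate pooled from 3 to 5 mice, and the mice of both genotypes were littermates. An IgG library was not analysed here.

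In a T cell that recirculates through lymph nodes, the forkhead factor Foxo1 supports transcription of Klf2, and the zinc finger factor Klf2 in turn supports S1pr1, the sphingosine-1-phosphate receptor that lets cells leave lymphoid organs. Ccr7 is the chemokine receptor that brings T cells into lymph nodes. Tcf7 and Lef1 encode the related HMG box factors TCF-1 and LEF-1 of naive and stem-like T cells, Bach2 is a repressor that restrains effector differentiation, and Satb1 organises chromatin in developing T cells. Treg cells that settle in non-lymphoid tissue are known for lowering parts of this program and raising an effector program.

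The 4 libraries held 2395002 to 4712473 counts in peaks. Promoter peaks of 7 T cell and Treg genes summed to 787 to 926 CPM (counts scaled to 1000000 after TMM normalization) in Ctrl and 899 to 1142 CPM in KO. The B cell list summed to 13.1 to 24.4 CPM, the myeloid list to 4.1 to 11.3 CPM, the epithelial list to 14.0 to 21.1 CPM and the CD8 list to 6.25 to 11.3 CPM over all libraries. Ms4a1, Pax5, Csf1r, Itgam, Lyz2, Cdx2, Cd8a and Col1a1 had 0 counts in promoter peaks in every library. The stromal and endothelial list was higher, at 80.5 to 109 CPM, and most of it came from Pecam1, a gene that T cells can also express, while the list of ILC and Th17 genes held 64.0 to 94.3 CPM. None of these list sums separated the genotypes, and their part in the results was not tested. Within the T cell and Treg list, promoter peaks of Cd3e, Foxp3, Il2ra and Ctla4 were higher in each KO library than in either Ctrl library. Those of Cd3g, Cd4 and Ikzf2 overlapped. Foxp3 promoter peaks held 104 and 122 CPM in Ctrl and 124 and 191 CPM in KO. Among all single tested peaks, 16.9% had both KO above both Ctrl libraries. The Setd2 locus carried 130 and 179 CPM in Ctrl and 101 and 138 CPM in KO, so that its log2 fold change was −0.37 (SE 0.27, edgeR adjusted p 1) with overlapping genotypes. Acetylation over a gene does not measure removal of the floxed exons, so the genotypes rest on the labels.

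Sequences are shown first for 2 members with CpG-rich starts, inside peaks of 1281 bp (Klf2) and 1308 bp (Foxo1). Then follow an internal start inside the widest Lef1 peak and 2 peaks that had the smallest p of their locus. All are 5′ to 3′, read from GRCm38.p6, the assembly of mm10, with gene starts from RefSeq and GENCODE. In the 150 bases before the starts of Klf2 (chr8:72318883-72319032, plus strand) and Foxo1 (chr3:52268186-52268335, plus strand), capitals mark CpG dinucleotides, 18 in Klf2 and 14 in Foxo1.
Klf2: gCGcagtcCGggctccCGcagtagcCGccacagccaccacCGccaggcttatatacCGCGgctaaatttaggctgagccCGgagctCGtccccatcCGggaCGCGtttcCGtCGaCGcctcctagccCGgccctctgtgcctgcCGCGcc
Foxo1: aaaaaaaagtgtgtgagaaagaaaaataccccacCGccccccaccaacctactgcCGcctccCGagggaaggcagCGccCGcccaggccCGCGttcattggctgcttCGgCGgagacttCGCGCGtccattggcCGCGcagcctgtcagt

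In the remaining 3 sequences capitals mark matches to short motifs: CACCC for KLF factors, CTTTGA for TCF and LEF factors, TGTTTAC for FOXO factors and CCGGAAG for ETS factors, each searched on both strands. The first is the 200 bases before an internal RefSeq start of Lef1 (chr3:131156094-131156293, plus strand), where TCAAAG occurs 2 times and GGGTG 1 time. The second is the centre of an upstream Tcf7 peak (chr11:52294044-52294243, plus strand), where TGTTTAC occurs 1 time. The third is the centre of an intronic Bach2 peak (chr4:32242689-32242888, plus strand), where none of the 4 motifs was found.
Lef1 internal start: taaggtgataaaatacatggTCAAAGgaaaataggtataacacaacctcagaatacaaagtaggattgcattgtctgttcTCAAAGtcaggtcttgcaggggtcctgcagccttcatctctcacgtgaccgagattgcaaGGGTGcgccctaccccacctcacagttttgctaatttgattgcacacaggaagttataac
Tcf7 peak: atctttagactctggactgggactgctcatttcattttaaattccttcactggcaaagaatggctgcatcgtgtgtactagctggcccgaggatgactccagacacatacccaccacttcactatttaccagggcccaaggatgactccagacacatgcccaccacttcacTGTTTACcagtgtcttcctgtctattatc
Bach2 peak: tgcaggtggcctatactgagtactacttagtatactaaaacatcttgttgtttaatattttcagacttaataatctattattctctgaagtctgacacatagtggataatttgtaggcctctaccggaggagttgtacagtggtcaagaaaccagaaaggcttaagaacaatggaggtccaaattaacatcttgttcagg

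No member locus passed the test between the genotypes. The quasi-likelihood test of edgeR, run on all 16106 loci with enough counts, gave each member an adjusted p of 1. Of the 8 members 0 passed an adjusted p under 0.05, where 0% of all loci did, and 0 had an unadjusted p under 0.05, where 2.54% of all loci did. DESeq2 called 0 members at either threshold. The Ctrl and KO libraries overlapped at all 8 loci, whereas they did not overlap at 28.7% of all loci. The fold changes of the members lay between −0.06 (S1pr1) and 0.28 (Ccr7) on the log2 scale. The 95% intervals of the KO to Ctrl ratio reached down to 0.655 for S1pr1 and up to 1.86 for Tcf7 in the fit without a replicate term. In bulk cells a lower level of the mark per cell and fewer cells that carry it cannot be told apart.

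**Figure D1:**
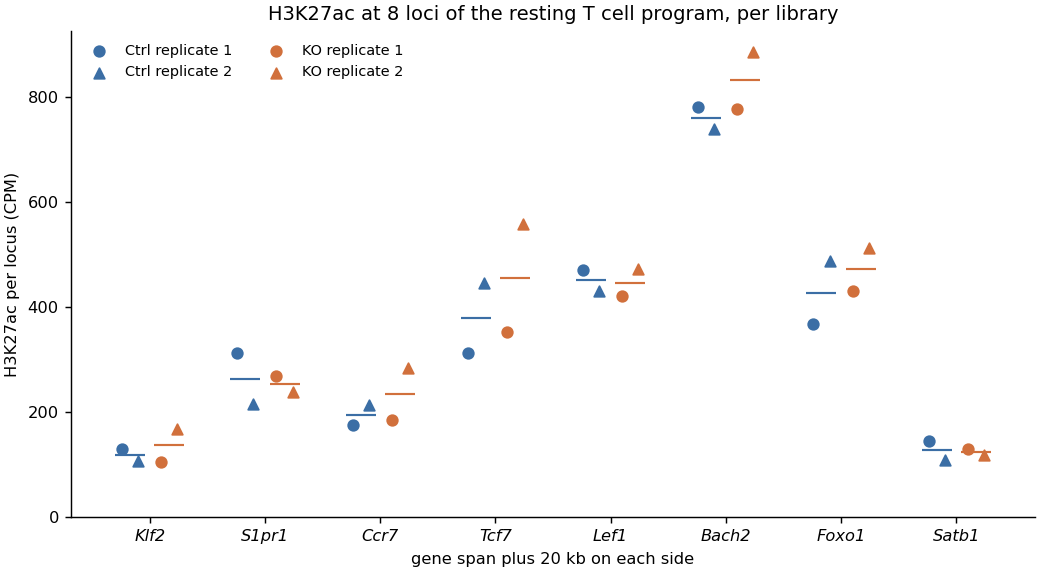
H3K27ac per locus in CPM (vertical axis) for the 8 genes, with 1 point per library, Ctrl in blue and KO in orange, circles for replicate 1 and triangles for replicate 2, and horizontal lines at the means of 2 libraries. Ctrl and KO points overlap at each gene, Bach2 is highest per locus at 738 to 886 CPM, and Klf2 and Satb1 are lowest at 105 to 167 CPM and 108 to 144 CPM.

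Foxo1 (ENSMUSG00000044167.6, chr3:52268336-52353221, plus strand) carried 367 and 486 CPM in Ctrl and 430 and 512 CPM in KO. Both replicate 2 libraries lay above both replicate 1 libraries, and the genotypes overlapped. The log2 fold change was 0.14 (SE 0.23). The locus held 41 peaks, 34 of them in the gene body away from the start, and gene body peaks took 67.3% to 69.7% of its counts. A large part of the whole locus signal lay in a pair of wide domains. Of these, the peak just inside the gene counted as a promoter peak. An intronic peak of 7614 bp (chr3:52296211-52303824), centred 31.7 kb into the gene, measured 81.4 and 110 CPM in Ctrl and 108 and 135 CPM in KO, and a peak of 6944 bp (chr3:52268757-52275700) that began just inside the gene measured 76.0 and 104 CPM in Ctrl and 105 and 117 CPM in KO. Only 0.345% of all peaks in the series were at least as wide as the intronic one. The peak over the start itself (chr3:52267337-52268644) held the CpG-rich sequence printed above and was much lower, with 17.2 and 23.8 CPM in Ctrl and 16.8 and 18.7 CPM in KO. The tested Foxo1 peak with the smallest p lay 11.7 kb upstream (chr3:52256263-52257082), with 4.52 and 9.82 CPM in Ctrl and 2.98 and 3.11 CPM in KO. Its genotypes did not overlap, and its adjusted p was 0.998.

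Klf2 (ENSMUSG00000055148.7, chr8:72319033-72321656, plus strand) is a short gene, and its locus held 13 peaks. It carried 130 and 106 CPM in Ctrl and 105 and 167 CPM in KO, so that KO replicate 2 stood above the other libraries. The log2 fold change was 0.21 (SE 0.28). Peaks within 3 kb of the start took 62.3% to 71.4% of the counts. The peak over the start (chr8:72318461-72319741, 1281 bp) measured 40.7 and 25.6 CPM in Ctrl and 30.6 and 38.8 CPM in KO. A peak over the 3′ part of the gene and the sequence beyond it (chr8:72321373-72323717) was as high, at 36.6 and 33.6 CPM in Ctrl and 23.5 and 40.0 CPM in KO. Between these, a peak of 966 bp (chr8:72320053-72321018) had the smallest p of the locus, 0.0533 before adjustment. It held 6.33 and 8.33 CPM in Ctrl and 9.69 and 19.2 CPM in KO, its genotypes did not overlap, and its log2 fold change of 0.98 (SE 0.51) did not pass the test (adjusted p 0.998) and was 0.35 without KO replicate 2. A start of another coding gene, Gm10282, also lay in the Klf2 window, and its 2 promoter peaks were low, with no KO value above 7.82 CPM.

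S1pr1 (ENSMUSG00000045092.8, chr3:115710433-115715072, minus strand) carried 312 and 215 CPM in Ctrl and 268 and 238 CPM in KO. Ctrl replicate 1 was the highest and Ctrl replicate 2 the lowest library, with both KO libraries between them. The log2 fold change was −0.06 (SE 0.25). A single peak of 7350 bp covered the start and nearly the whole gene (chr3:115710476-115717825) and took 53.5% to 59.2% of the counts. It measured 172 and 125 CPM in Ctrl and 143 and 141 CPM in KO. The other 12 peaks lay in the flanks, 10 of them downstream. The downstream flank summed to 94.6 and 66.4 CPM in Ctrl and 96.9 and 68.3 CPM in KO, the same order of replicate 1 above replicate 2 in both genotypes. A weak peak in the downstream flank (chr3:115694831-115695319) was lower in both KO libraries, with 6.33 and 4.46 CPM in Ctrl and 1.12 and 2.16 CPM in KO, and did not pass the test (adjusted p 0.998).

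Ccr7 (ENSMUSG00000037944.8, chr11:99144196-99155077, minus strand) carried 175 and 213 CPM in Ctrl and 185 and 284 CPM in KO. Replicate 2 was above replicate 1 in each genotype, and the log2 fold change was 0.28 (SE 0.26). Its 18 peaks held several of similar height and no leading domain, and the widest measured 2404 bp. The largest share, 31.6% to 47.8% of the counts, lay in the upstream flank, which summed to 55.2 and 102 CPM in Ctrl and 74.5 and 121 CPM in KO. The highest peak of the locus was in this flank (chr11:99162492-99164341, 8.34 kb before the start), with 15.8 and 34.5 CPM in Ctrl and 24.6 and 46.7 CPM in KO. It was also the tested peak with the smallest p, 0.153 before adjustment. The peak over the start (chr11:99153738-99155596) held 20.8 and 18.7 CPM in Ctrl and 22.7 and 33.5 CPM in KO. Both Ctrl values were below both KO values there, with a log2 fold change of 0.52 (SE 0.37) that did not pass the test (adjusted p 0.998) and was 0.17 without KO replicate 2.

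Tcf7 (ENSMUSG00000000782.15, chr11:52252371-52283014, minus strand) carried 312 and 445 CPM in Ctrl and 352 and 558 CPM in KO. Both replicate 2 libraries were above both replicate 1 libraries, with replicate 2 at 1.51 times replicate 1 on average. Within each replicate number KO was above Ctrl, as also at Ccr7 and Foxo1, but the numbers pair the libraries by name alone. The log2 fold change was 0.26 (SE 0.28). The locus held the widest peak of all members, 11165 bp from the start into the gene (chr11:52271878-52283042), and only 0.125% of peaks in the series were at least as wide. This domain measured 125 and 193 CPM in Ctrl and 141 and 256 CPM in KO. A pair of gene body peaks behind it, of 3502 and 4082 bp, had the same order of libraries. The upstream peak whose centre is printed above (chr11:52293662-52294624), 11.1 kb before the start, held 5.88 and 10.4 CPM in Ctrl and 14.5 and 16.8 CPM in KO. Its genotypes did not overlap, and its log2 fold change of 0.91 (SE 0.49) did not pass the test (adjusted p 0.998). At the other end, a downstream peak (chr11:52230328-52232986) of 46.1 and 59.2 CPM in Ctrl and 47.7 and 58.7 CPM in KO was the promoter peak of the neighbouring gene Skp1a and not of Tcf7.

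Lef1 (ENSMUSG00000027985.14, chr3:131110471-131224356, plus strand) varied least over the libraries relative to its level. It carried 471 and 430 CPM in Ctrl and 420 and 471 CPM in KO, with a log2 fold change of −0.01 (SE 0.21). Gene body peaks took 66.9% to 71.5% of the counts. The leading peak was an intronic domain of 8703 bp centred 46.8 kb into the gene (chr3:131152965-131161667), with 107 and 122 CPM in Ctrl and 97.6 and 137 CPM in KO. The internal RefSeq start, with the pair of TCAAAG matches printed above, lay inside this domain. The domain over the gene start (chr3:131109367-131114576, 5210 bp) measured 94.6 and 67.3 CPM in Ctrl and 83.8 and 82.2 CPM in KO. The intronic domain was higher in replicate 2 and the start domain higher in replicate 1, in both genotypes. An intronic peak of 491 bp (chr3:131177863-131178353) had the smallest p of the locus, 0.144 before adjustment, with 5.43 and 5.95 CPM in Ctrl and 1.86 and 2.88 CPM in KO.

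Bach2 (ENSMUSG00000040270.16, chr4:32238804-32586108, plus strand) is the longest member and held 79 peaks. It carried 780 and 738 CPM in Ctrl and 777 and 886 CPM in KO, with a log2 fold change of 0.13 (SE 0.19). Promoter peaks held only 3.71% to 4.84% of the counts, and gene body peaks 88.1% to 90.6%. The highest peak lay in an intron 11.1 kb after the start (chr4:32247850-32252043, 4194 bp), with 113 and 89.9 CPM in Ctrl and 108 and 141 CPM in KO. The peak at the start (chr4:32237588-32238693) measured 9.95 and 5.06 CPM in Ctrl and 10.8 and 9.82 CPM in KO. The intronic peak printed above (chr4:32242186-32243391), 3.98 kb after the start, was the only tested member peak with an unadjusted p under 0.05. It held 13 and 30 counts in Ctrl and 22 and 96 counts in KO, which is 5.88 and 8.93 CPM in Ctrl and 8.20 and 23.0 CPM in KO. KO replicate 1 lay between the Ctrl libraries, so the genotypes overlapped, and the log2 fold change of 1.08 (SE 0.50) had an edgeR p of 0.0299 before adjustment over all peaks and of 0.998 after it. Without KO replicate 2 the log2 fold change was 0.09. The start of Gja10, another coding gene, also fell in the Bach2 window, with no peak within 3 kb of it.

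Satb1 (ENSMUSG00000023927.15, chr17:51736187-51833290, minus strand) carried 144 and 108 CPM in Ctrl and 129 and 118 CPM in KO, with a log2 fold change of −0.03 (SE 0.25). Its 20 peaks covered 12.8 kb of the window and none was wider than 1420 bp. Promoter peaks, which lay at 7 annotated starts, took 69.9% to 75.3% of the counts. Neighbouring promoter peaks ordered the libraries differently. The peak over the first start (chr17:51832998-51834387) held 26.2 and 12.2 CPM in Ctrl and 13.0 and 9.58 CPM in KO. The next peak inside the gene (chr17:51831079-51832498) held 18.5 and 22.6 CPM in Ctrl and 34.7 and 25.2 CPM in KO, with both KO above both Ctrl libraries. The log2 fold changes were −0.75 (SE 0.45) for the first and 0.52 (SE 0.37) for the second, both with an adjusted p of 0.998. With each library left out they ranged from −1.22 to −0.13 and from 0.27 to 0.71, the first nearest to zero without Ctrl replicate 1. The smallest p of the locus belonged to an intronic peak (chr17:51762549-51763557) with 7.24 and 1.79 CPM in Ctrl and 9.31 and 9.10 CPM in KO.

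**Figure D2:**
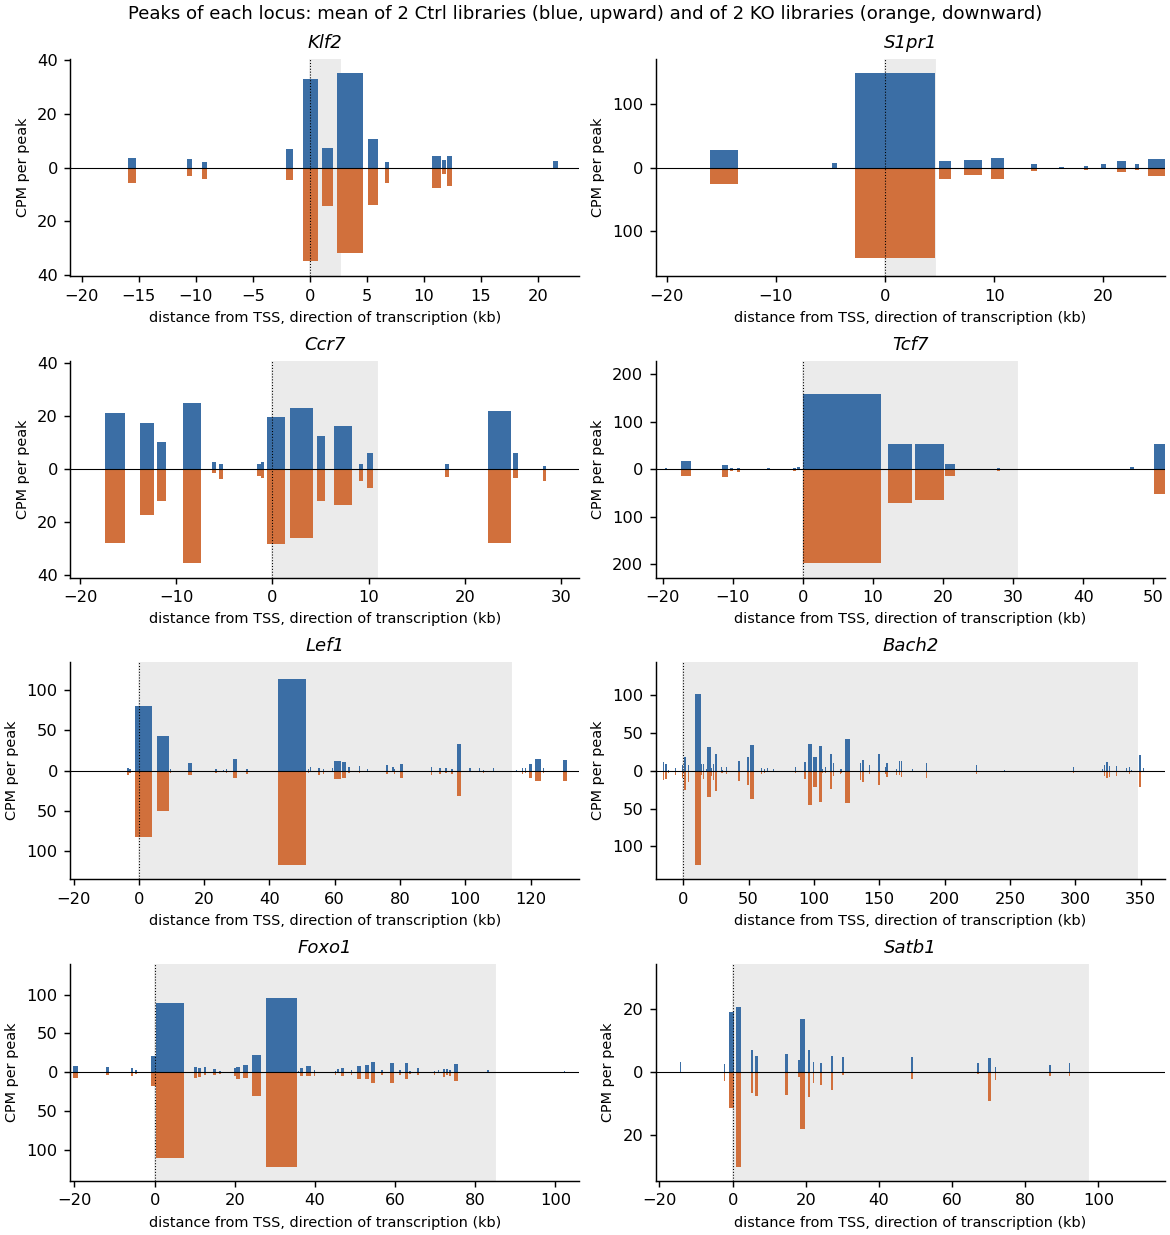
Peaks of each locus by distance from the gene start in kb (horizontal axis, direction of transcription, gene span shaded) and CPM per peak (vertical axis), with the mean of 2 Ctrl libraries upward in blue and the mean of 2 KO libraries downward in orange. Bars are as wide as the peaks, with a minimum drawn width for narrow ones, and they show the wide domains of S1pr1 and Tcf7 at the start, the intronic domains of Foxo1 and Lef1, and the many lower peaks of Bach2.

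Loci were ordered by CPM per kb of window, since the windows ranged from 42.6 kb for Klf2 to 387.3 kb for Bach2. The order was Tcf7 (5.90 ± 1.55 CPM per kb, SD over 4 libraries), S1pr1 (5.78 ± 0.938), Ccr7 (4.21 ± 0.971), Foxo1 (3.60 ± 0.515), Klf2 (2.98 ± 0.686), Lef1 (2.91 ± 0.173), Bach2 (2.05 ± 0.164) and Satb1 (0.911 ± 0.114). Neighbours from Tcf7 to Lef1 overlapped over the libraries. The Tcf7 window includes the Skp1a promoter peak, most of a downstream flank that held 10.7% to 15.8% of its counts. This share exceeds the gap between Tcf7 and S1pr1, so the first place of Tcf7 rests on it. The order and the percentiles were not recomputed without that peak. Lef1 lay above Bach2 and Bach2 above Satb1 in every library. Among all tested loci, S1pr1 stood between the 93.5th and 98.8th percentile of CPM per kb and Tcf7 between the 94.8th and 97.5th, depending on the library. Satb1 stood between the 43.0th and 52.9th. The other 7 loci were at or above the 71.9th percentile in every library of both genotypes.

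The members differed in where the acetylation lay by class of peak. Any peak within 3 kb of an annotated start counted as a promoter peak, so these shares depend on gene length and on the number of starts. Klf2 (2.6 kb) and S1pr1 (4.6 kb) had 0 gene body peaks by this rule, and Satb1 had 7 starts. Promoter peaks held most of the counts at Klf2, S1pr1 and Satb1, gene bodies at Lef1, Bach2 and Foxo1, and the upstream flank held the largest share at Ccr7. At Tcf7 promoter peaks took 41.5% to 47.1% and gene body peaks 31.2% to 34.2%. The promoter share of a locus did not overlap between the genotypes at 4 of the 8 members, against 36.8% of the tested loci with a promoter peak, and these differences were not tested. With 8 loci such a count does not set the members apart from the other loci, and the values below are descriptions. The promoter share was lower in KO at Klf2, with 71.4% and 68.3% in Ctrl libraries and 64.1% and 62.3% in KO libraries. It was higher in KO at Satb1 (69.9% and 70.2% in Ctrl, 74.6% and 75.3% in KO), Bach2 (3.71% and 3.79% in Ctrl, 4.51% and 4.84% in KO) and Foxo1 (25.4% and 26.2% in Ctrl, 28.3% and 26.5% in KO). At S1pr1, Ccr7, Tcf7 and Lef1 it overlapped.

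**Figure D3:**
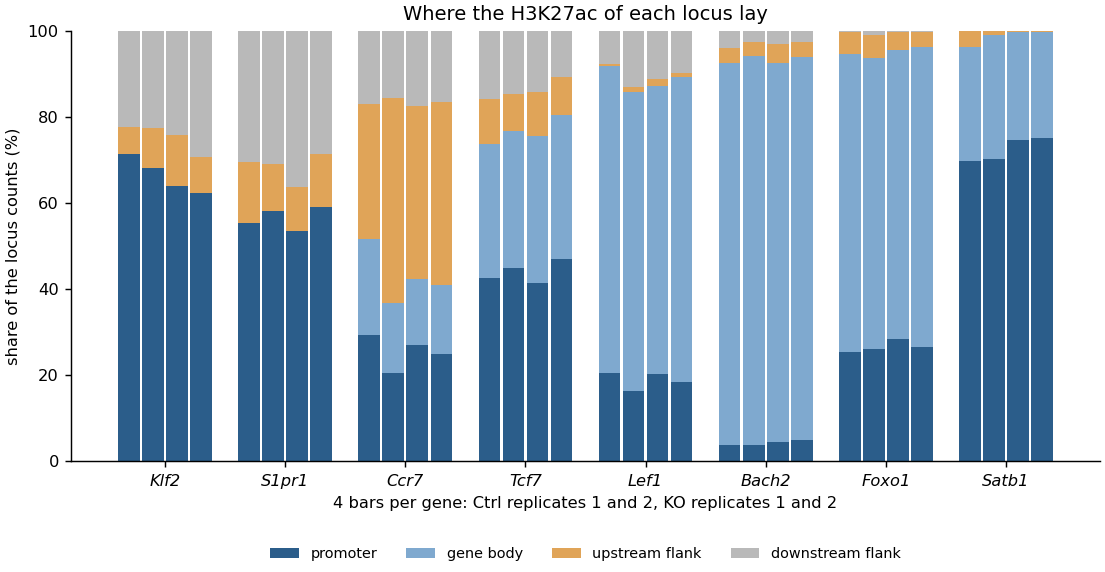
Share of each locus's counts in percent (vertical axis) in promoter peaks within 3 kb of a start of the gene, other gene body peaks, and the upstream and downstream flanks of 20 kb, with 4 bars per gene for the 4 libraries. The promoter share runs from 3.71% to 4.84% at Bach2 to 69.9% to 75.3% at Satb1. The promoter bars of Klf2, Bach2, Foxo1 and Satb1 do not overlap between the genotypes, as at 36.8% of the tested loci with a promoter peak.

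Wide domains were frequent at these loci. Of the 241 member peaks 6 were at least 5 kb wide (2.49%), against 1.02% of all peaks. They lay at Tcf7, S1pr1, Lef1 and Foxo1, so that 4 of the 8 loci held such a domain, against 10.2% of all tested loci. Long windows have more room for a wide peak, and this comparison was not adjusted for window length. The genotypes overlapped at 5 of the 6 domains. The exception was the Foxo1 domain just inside the gene, where each KO library was above each Ctrl library by a log2 fold change of 0.30 (SE 0.28) that did not pass the test.

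Among single peaks, 170 of the 241 had at least 10 counts in at least 2 libraries and were tested. None passed an adjusted p under 0.05, where 0.00134% of all tested peaks did, and the 1 Bach2 peak with an unadjusted p under 0.05 compares with 4.24% of all peaks. DESeq2 called 0 of the 170 at either threshold. Of the 170 peaks 103 (60.6%) had a positive log2 fold change, against 49.2% of all tested peaks, and the median was 0.13 against −0.01. Without KO replicate 2 this was reversed, and 67 of 142 tested peaks were positive with a median of −0.063. Of all peaks tested in that fit 49.6% were positive, with a median of −0.0066. At 47 of the 170 the KO values lay wholly apart from the Ctrl values, against 33.3% of all tested peaks. In 30 of these both KO libraries were above both Ctrl libraries (16.9% of all peaks) and in 17 below (16.4% of all peaks). By locus, 38 of 57 tested peaks were positive at Bach2, 9 of 11 at Tcf7, 9 of 12 at Satb1, 8 of 11 at Klf2, 7 of 12 at Ccr7, 16 of 31 at Foxo1, 12 of 25 at Lef1 and 4 of 11 at S1pr1. Peaks of 1 locus are not independent, and these counts are descriptions.

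At several members the libraries separated by replicate number and not by genotype. The 2 replicate 1 libraries and the 2 replicate 2 libraries did not overlap at 5 of the 8 loci, where 57.7% of all loci had such a separation, a share close to that of the members. Tcf7, Ccr7 and Foxo1 were higher in replicate 2, and S1pr1 and Satb1 were higher in replicate 1. Replicate 2 libraries were also the deeper ones, with 3630447 counts in Ctrl and 4712473 in KO. Replicate 1 libraries held 2395002 in Ctrl and 3007444 in KO. The labels do not say what the replicate number stands for, and its part and that of depth in the levels were not tested. Leaving out KO replicate 2 turned the log2 fold changes negative for Klf2 (−0.20), Tcf7 (−0.14), Ccr7 (−0.10) and Foxo1 (−0.023). The median over all loci was −0.064 in that fit, with 42.3% positive, so Foxo1 stayed above it. Leaving out Ctrl replicate 1 turned the fold changes positive for S1pr1 (0.23), Satb1 (0.19) and Lef1 (0.043). Foxo1 was also negative without Ctrl replicate 1 (−0.053). Bach2 alone kept its sign, between 0.00336 and 0.21, when each library was left out.

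**Figure D4:**
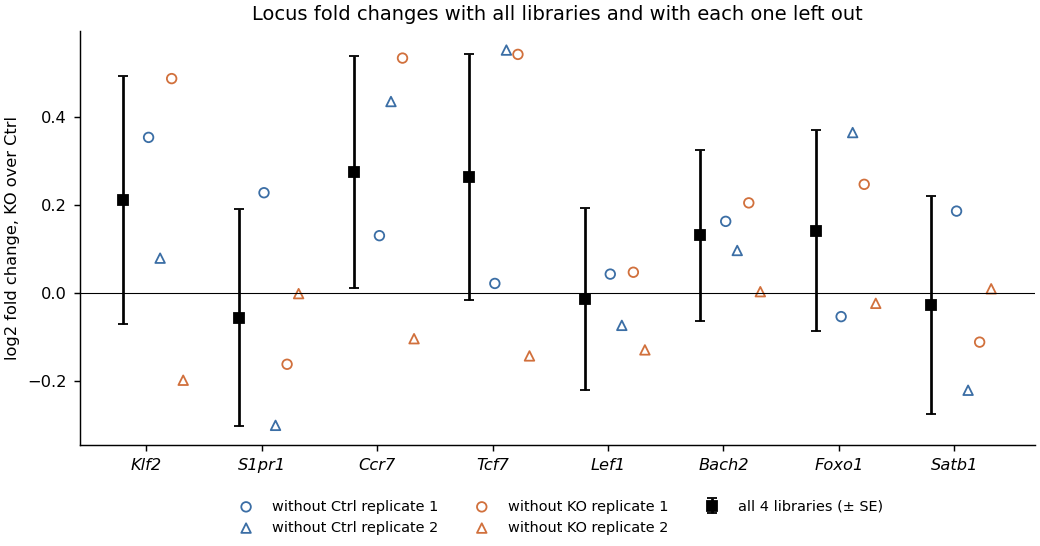
Log2 fold change of KO over Ctrl (vertical axis) per locus from all 4 libraries (black squares, bars are ± 1 SE) and with each library left out (open symbols, blue for a Ctrl and orange for a KO library, circles for replicate 1 and triangles for replicate 2). The estimates span zero at each locus apart from Bach2, and the triangles without KO replicate 2 are the lowest at Klf2, Ccr7, Tcf7, Lef1 and Bach2.

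The median log2 fold change of the 8 members was 0.14, beside −0.01 over all tested loci, and 5 of the 8 were positive against 49.3% of all loci. With an offset that removes a trend with abundance the median became −0.021 and 3 of the 8 were positive, since Foxo1 and Bach2 turned negative. A list of 25 other resting T cell genes, chosen with earlier results of these data known, was counted in the same way. Of these 20 had a positive log2 fold change (16 with the abundance offset) with a median of 0.17. The median was 0.076 with the abundance offset and 0.022, with 16 positive, without KO replicate 2. Over all loci the median without KO replicate 2 was −0.064, and over the 8 members −0.063. In edgeR without a replicate term and in DESeq2 0 passed an adjusted p under 0.05, and both KO libraries were above both Ctrl libraries at 8 (11.9% of all loci) and below at 3 (16.8% of all loci). Il7r, the receptor for the survival cytokine IL-7, carried 223 and 199 CPM in Ctrl and 218 and 196 CPM in KO. Foxp1, a forkhead factor of T cell quiescence, was higher in each KO library than in either Ctrl library, with 1193 and 1211 CPM in Ctrl and 1489 and 1406 CPM in KO (log2 fold change 0.27, SE 0.18). Klf3 carried 196 and 268 CPM in Ctrl and 231 and 292 CPM in KO, and Id3, an inhibitor of E proteins, 24.9 and 38.1 CPM in Ctrl and 21.98 and 46.0 CPM in KO. Ets1, named after its values were seen, was the 1 gene of the list with an unadjusted p under 0.05 in edgeR. Of all loci 2.54% were under this threshold in edgeR, and DESeq2 gave 0 of the 25 genes. Ets1 carried 1046 and 1240 CPM in Ctrl and 1385 and 1773 CPM in KO. Dapl1, Bcl2 and Tsc1, also named after their values were seen, were the 3 with both KO libraries below both Ctrl libraries.

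As a comparison, 21 loci of effector and tissue Treg genes were counted in the same fit. Of these 20 had a positive log2 fold change (16 with the abundance offset) with a median of 0.28 (0.17 with the offset). Their median percentile of CPM per kb was 95.8, against 87.0 for the members. At 15 of the 21 both KO values exceeded both Ctrl values, against 11.9% of all loci. At 0 of the 21 both fell short of them, against 16.8% of all loci. At the 8 resting members both counts were 0, and at the 25 other resting genes they were 8 and 3. Some windows of the effector list share peaks, as those of Ccr9 and Cxcr6 do. The list was chosen with earlier results of these data known, and the study itself named Ccr9 and Cxcr6 from this H3K27ac experiment. Its counts are therefore descriptions and no independent support. Of the 21 loci 0 passed an adjusted p under 0.05 in edgeR without a replicate term or in DESeq2. At an unadjusted p under 0.05 in edgeR there were 3 of the 21, against 2.54% of all loci. They were Ctla4 and, named after their values were seen, Ccr9 and Cxcr6. Ctla4, the inhibitory receptor of Treg cells, carried 632 and 680 CPM in Ctrl and 850 and 949 CPM in KO, with a log2 fold change of 0.46 (SE 0.19) that did not pass the test. Prdm1, the effector repressor Blimp-1, carried 250 and 187 CPM in Ctrl and 297 and 251 CPM in KO. Ikzf2, which encodes Helios, carried 1196 and 1245 CPM in Ctrl and 1310 and 1563 CPM in KO. Whether the fold changes of the effector loci and of the 8 members differ was not tested.

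**Figure D5:**
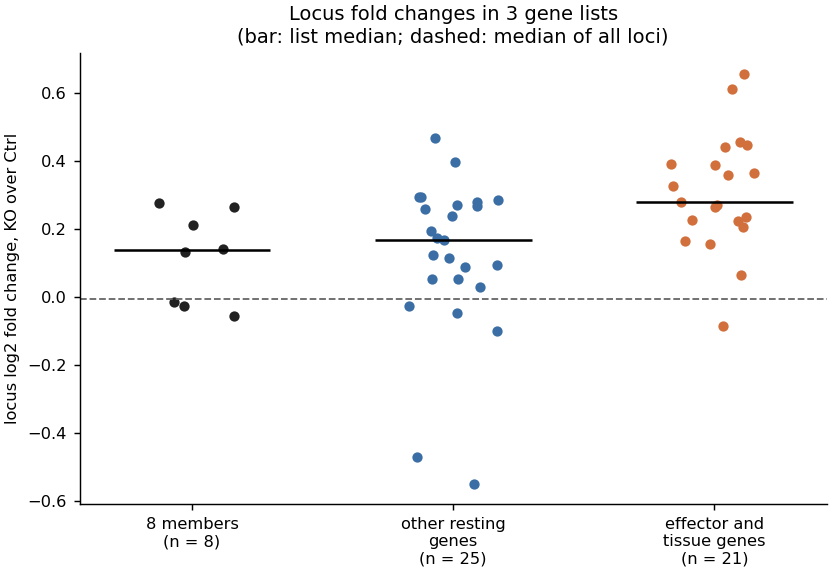
Log2 fold change of KO over Ctrl (vertical axis) for each locus of the 8 members, 25 other resting T cell genes and 21 effector and tissue Treg genes, with a bar at the median of each list and a dashed line at the median of all tested loci. The medians are 0.14, 0.17 and 0.28, and the dashed line lies at −0.01.

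The 3 tested loci whose CPM over the 4 libraries lay closest to the mean profile of the members were Ascc1, Pxn and Tnfrsf26, with root mean square differences of 0.048, 0.049 and 0.054 on the log2(CPM + 1) scale over 4 libraries. The mean profile was 285 and 279 CPM in Ctrl and 276 and 335 CPM in KO.

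RefSeq promoter windows, with 250 bases before a start, matched 6 members by symbol, and S1pr1 and Ccr7 had none. Bach2 had a window at an internal start alone. At the 5 members with a window at the gene start, the median GC content of the upstream bases was 66.4% against 52.4% over 32851 windows, and the median ratio of observed to expected CpG was 0.92 against 0.37. The 32851 windows also included internal and alternative starts, which were left out for the members, so the 2 sets are unlike. Among the 5 windows Tcf7 had the highest GC content (76.0%) and Satb1 the lowest CpG ratio (0.239). A Satb1 window left out, 643 bases from the gene start, had 80.8% GC and a CpG ratio of 1.055. CACCC or its complement was in 4 of these 5 windows (Klf2, Tcf7, Lef1 and Satb1), against 52.0% of all windows. The TCF/LEF, FOXO and ETS letters were in 0 of the 5, against 13.8%, 3.17% and 6.91% of all windows. In the central 300 bases of the tested peaks the TCF/LEF letters were in 32 of 170 member peaks (18.8%), against 18.4% of all tested peaks. The FOXO letters were in 11 (6.47%), against 3.83%, the KLF letters in 95 (55.9%), against 55.0%, and the ETS letters in 2 (1.18%), against 2.88%. A match of letters is a description and does not show that a factor was bound.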

How the data were processed

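H3K27ac CUT&Tag libraries were prepared by the authors from sorted large intestinal Treg cells and sequenced with paired ends. Per the study's methods the authors trimmed reads, aligned them with Bowtie2 to mm10, kept unique alignments and removed duplicates. MACS2 was used to call peaks over the IgG control, and bedtools to join the peak sets of the libraries. Tool versions were not given in the sources used here. The deposited values were raw counts per merged peak with no normalization. Peaks were called on the same libraries that were compared, and if both mates of a pair were counted, each count holds fewer independent fragments than its size.

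The 8 members and the gene lists were chosen with earlier results of these data known. Counts were summed over peaks overlapping each GENCODE M21 basic protein-coding gene plus 20 kb. Loci and peaks that reached 10 counts in 2 or more libraries entered edgeR 4.0.16 (R 4.3.3) and its quasi-likelihood test, KO against Ctrl without covariates, with TMM factors from tested peaks and Benjamini-Hochberg adjustment over all loci or all peaks. SE is the log2 fold change over the square root of F. Intervals of 95% used the t distribution with 9.43 degrees of freedom, 2 of them residual. Per the study's methods each library was a separate biological replicate of pooled mice. With 2 against 2 libraries an exact permutation test cannot give a two-sided p below 0.333 and was not used. For peaks edgeR estimated an infinite prior, so the test took the spread from the abundance trend and not from a peak's own replicates. Named items were the members, for each member the peak at the start, the highest peak and the tested peak with the smallest p, other resting genes (Il7r, Foxp1, Id3, Klf3, and 1 that is not reported here), 3 effector genes (Ctla4, Prdm1, Ikzf2), genes starting inside a member window and the 3 loci nearest to the mean profile. Other peaks were named after their values were seen. Motifs were searched with Python 3.11.15. The code was tested on simulated counts. Alternatives were DESeq2 1.42.0, other size factors, an abundance offset, count minimums, the replicate number as a block, each library left out, and other windows. Halved counts were added after seeing the data. RefSeq windows and the genome were GRCm38.p6.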

Additional observations from a re-analysis of the deposited data

How the results depend on the processing

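No member peak was called under any alternative run, and no member locus was called under any but 1. With the replicate number as a block (replicate block), 1632 of all loci and 1 member were called, Tcf7 with a log2 fold change of 0.26 and an adjusted p of 0.0382, beside 7 of the 25 other resting loci and 13 of the 21 effector loci. The numbers pair the libraries by name alone, and deviations from the group means correlated at 0.56 over loci and 0.26 over peaks between Ctrl and KO replicate 2. The median over the members became −0.021 with the loess offset on abundance and lay between −0.063 and 0.23 with each library left out, the lowest without KO replicate 2. In the fit without KO replicate 2 the median over all loci was −0.064. Left out one at a time, libraries gave ranges of −0.20 to 0.49 for Klf2, −0.30 to 0.23 for S1pr1, −0.10 to 0.53 for Ccr7, −0.14 to 0.55 for Tcf7, −0.13 to 0.048 for Lef1, −0.053 to 0.37 for Foxo1 and −0.22 to 0.19 for Satb1. The same ranges were −0.21 to 0.68 for the Tcf7 start domain, −0.093 to 1.19 for the highest Ccr7 peak, −0.28 to 0.18 for the S1pr1 start domain, −0.18 to 0.30 and −0.26 to 0.24 for the Lef1 start and intronic domains, −0.43 to 0.053 for the Foxo1 start peak and −0.22 to 0.43 for the Klf2 start peak.

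Signs also turned elsewhere, always at an adjusted p above 0.99. Lef1 gave 0.026 with any count in at least 2 libraries, 0.055 with 50 kb windows and 0.057 with promoter peaks alone. Satb1 gave 0.00596 with any count in at least 2 libraries, 0.00409 with 0 kb, 0.011 with 50 kb and 0.072 with promoter peaks alone. With the loess offset Bach2 gave −0.13, Foxo1 −0.034, the Klf2 start peak −0.027 (−0.039 at 50 counts), and the Lef1 domains −0.15 and −0.19. The Lef1 domains gave −0.014 and −0.018 with total counts, −0.073 and −0.086 at 50 counts, and −0.013 and −0.025 with halved counts. The causes were not tested. A minimum of 50 counts moved the median of all loci to −0.12. The median of the other resting loci was 0.049, with 14 of 25 positive, at this minimum.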
